A study of Mus musculus with 14 samples.

Results

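Interferon-stimulated genes are the genes that a cell switches on when an interferon binds its surface receptors. Of 45 such genes taken by name, 44 had a probe on the array and 40 were measured, meaning that at least 1 probe had a detection p-value under 0.05 on 2 or more arrays. They stand among 12444 measured genes and hold 71 of the 24445 kept probes. Ifit1, Xaf1, Gbp6 and Cxcl11 had probes but none was kept, and Ifi44 had no probe in the annotation used here.

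RNA came from cells sorted out of enzymatically digested lungs of Foxd1-Cre;Rosa26-tdTomato;Coll-GFP mice, in which tdTomato marks all descendants of cells that once expressed Foxd1 and GFP reports collagen promoter activity. Sorted Peri cells showed tdTomato but no GFP, PeriFibro cells showed both colours, and in Fibro cells only GFP was seen. The 14 arrays are 2 Peri, 3 PeriFibro and 3 Fibro arrays from male mice at day 7 after 0.8 U/kg bleomycin, an agent instilled into the trachea that injures the lung, and 2 arrays of each population from female mice given saline, called uninjured. Bleomycin and sex cannot be told apart in any comparison of injury, and nothing in the labels ties the arrays to separate animals, so p-values measure only the spread between these samples.

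Levels are log2 signals after background correction and quantile normalisation, on which the lowest signals above background lie between 4.66 and 4.82. A gene is called where limma, fitted over all measured genes, gave an adjusted p below 0.05 with at least a 2-fold difference. Each array detected 39.38% to 44.36% of its probes. The labelled cell types were set against marker genes. Peri arrays had 7 pericyte markers at a mean of 5.10 to 5.92, against 6.57 to 7.39 on PeriFibro and 5.99 to 6.29 on Fibro arrays. In each Peri group only 4 of the 7 were detected on every array. Mcam was apart between Peri (6.50 to 9.45) and Fibro arrays (9.80 to 11.32), while Pdgfrb overlapped (5.08 to 6.32 and 5.64 to 6.47). Peri arrays had 9 general leukocyte markers at 10.8 to 11.4, against 7.79 to 9.13 on PeriFibro and 9.68 to 10.7 on Fibro arrays. PeriFibro arrays had the endothelial markers at 12.1 to 13.1, against 10.9 to 12.2 on Fibro arrays, and Fibro arrays had the epithelial markers at 8.83 to 9.77 after bleomycin, against 12 and 12.5 when uninjured. In bulk RNA of a sort, more cells of a type and more RNA per cell cannot be told apart. Along the second principal component of all genes, which carries 18.4% of the variance, 3 arrays stand apart, at scores of 33.5 to 71.4, against 12 or less elsewhere: PeriFibro bleomycin replicate 3, Fibro bleomycin replicate 2 and Fibro uninjured replicate 2.

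Interferons of types I and II reach the same genes by related routes. Type I interferons activate the kinases Jak1 and Tyk2. These lead to a complex that holds Stat2 and Irf9 and binds the interferon-stimulated response element, or ISRE. Interferon gamma, the type II interferon, is made mainly by T and NK cells and acts through Jak1 and Jak2 on genes that carry a palindrome called GAS. In the lung these genes are best known as the antiviral programme of infected airways, and their products bind or degrade viral RNA, block entry and budding, attack intracellular vacuoles, attract T cells and prepare peptides for presentation.

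Promoter windows show the elements through which the members are usually induced. The ISRE core was searched as 2 copies of GAAA parted by any 2 bases, and GAS as TTCNNNGAA, on both strands, from 250 bases before to 50 bases after each RefSeq transcription start (build GRCm38.p6). Windows were found for 32 of the 40 measured members. The ISRE core lay in 18 of the 32 (56.2%) and in 3.99% of all 27025 genes in the table, and GAS in 11 of the 32 (34.4%) and in 9.55% of all genes. Isg15, a ubiquitin-like protein that is coupled to other proteins, had 3 ISRE cores, the most of the 32. Irf7, the transcription factor that amplifies interferon production, had neither motif. The same held for Cxcl9, Oasl1, Oasl2, Ifitm1, Cmpk2, Irf9, Psmb9 and Tap1.

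The windows of Bst2 (chr8:71537423-71537722, minus strand) and Oas3 (chr5:120777610-120777909, minus strand) are shown because these genes were called most often together with Irf7. Those of Rsad2 (chr12:26456403-26456702, minus strand), Ifit3 (chr19:34583279-34583578, plus strand) and Cxcl10 (chr5:92348840-92349139, minus strand) were added after their values were seen, because they differ widely between arrays. Capitals mark ISRE cores, on either strand, and in Bst2 also a GAS match that overlaps the first of 2 overlapping ISRE cores.
Bst2: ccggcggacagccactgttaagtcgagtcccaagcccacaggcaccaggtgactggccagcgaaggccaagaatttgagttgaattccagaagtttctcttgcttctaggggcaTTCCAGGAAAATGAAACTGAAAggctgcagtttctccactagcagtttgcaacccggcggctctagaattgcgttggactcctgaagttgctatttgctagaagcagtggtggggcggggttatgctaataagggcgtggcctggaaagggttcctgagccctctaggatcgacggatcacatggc
Oas3: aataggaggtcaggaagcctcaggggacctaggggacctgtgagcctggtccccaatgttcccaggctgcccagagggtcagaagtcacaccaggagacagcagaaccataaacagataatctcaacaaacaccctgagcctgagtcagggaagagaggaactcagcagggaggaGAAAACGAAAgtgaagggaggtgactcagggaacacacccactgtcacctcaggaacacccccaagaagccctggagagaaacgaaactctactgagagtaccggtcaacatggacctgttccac
Rsad2: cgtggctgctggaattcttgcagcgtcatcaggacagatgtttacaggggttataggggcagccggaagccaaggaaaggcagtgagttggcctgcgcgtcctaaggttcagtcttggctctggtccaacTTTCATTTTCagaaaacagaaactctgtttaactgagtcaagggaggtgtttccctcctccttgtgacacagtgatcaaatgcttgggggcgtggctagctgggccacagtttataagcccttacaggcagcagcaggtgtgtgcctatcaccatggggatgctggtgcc
Ifit3: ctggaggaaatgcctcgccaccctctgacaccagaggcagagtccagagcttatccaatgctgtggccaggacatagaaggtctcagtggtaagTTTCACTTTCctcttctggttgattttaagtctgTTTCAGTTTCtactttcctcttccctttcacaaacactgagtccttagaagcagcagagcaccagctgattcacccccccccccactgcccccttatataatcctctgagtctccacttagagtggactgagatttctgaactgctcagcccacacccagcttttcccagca
Cxcl10: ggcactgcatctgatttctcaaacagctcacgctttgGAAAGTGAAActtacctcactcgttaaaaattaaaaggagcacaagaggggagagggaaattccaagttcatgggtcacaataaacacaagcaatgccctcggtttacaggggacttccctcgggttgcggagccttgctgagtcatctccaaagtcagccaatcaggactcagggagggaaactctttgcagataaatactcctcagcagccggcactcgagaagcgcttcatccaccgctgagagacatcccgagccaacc
The cores begin 130 and 124 bases before the start in Bst2, 75 in Oas3, 120 in Rsad2, 156 and 122 in Ifit3, and 213 in Cxcl10. Such a match is a run of letters, and whether a factor bound it was not measured.

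Between bleomycin and uninjured lungs none of the 40 members was called. Of all genes, 0.595% were called in Peri cells, 0.129% in PeriFibro cells and 1.6% in Fibro cells. At an unadjusted p under 0.05 Peri cells had 1 member (2.5%, against 7.01% of all genes), PeriFibro cells 1 (2.5%, against 6.56%) and Fibro cells 2 (5%, against 12.6%). The members' median log2 difference was -0.07 for Peri, -0.34 for PeriFibro and 0.26 for Fibro cells, against 0.03, -0.03 and -0.03 over all genes. The chemokines had the highest differences of the members in each population, while in PeriFibro cells Gbp7 differed more in size, with the opposite sign. Its lowest PeriFibro level was on bleomycin replicate 3, among the 3 arrays that stand apart. The spread between bleomycin arrays was wide, as the map of all members by array shows.

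**Figure D1:**
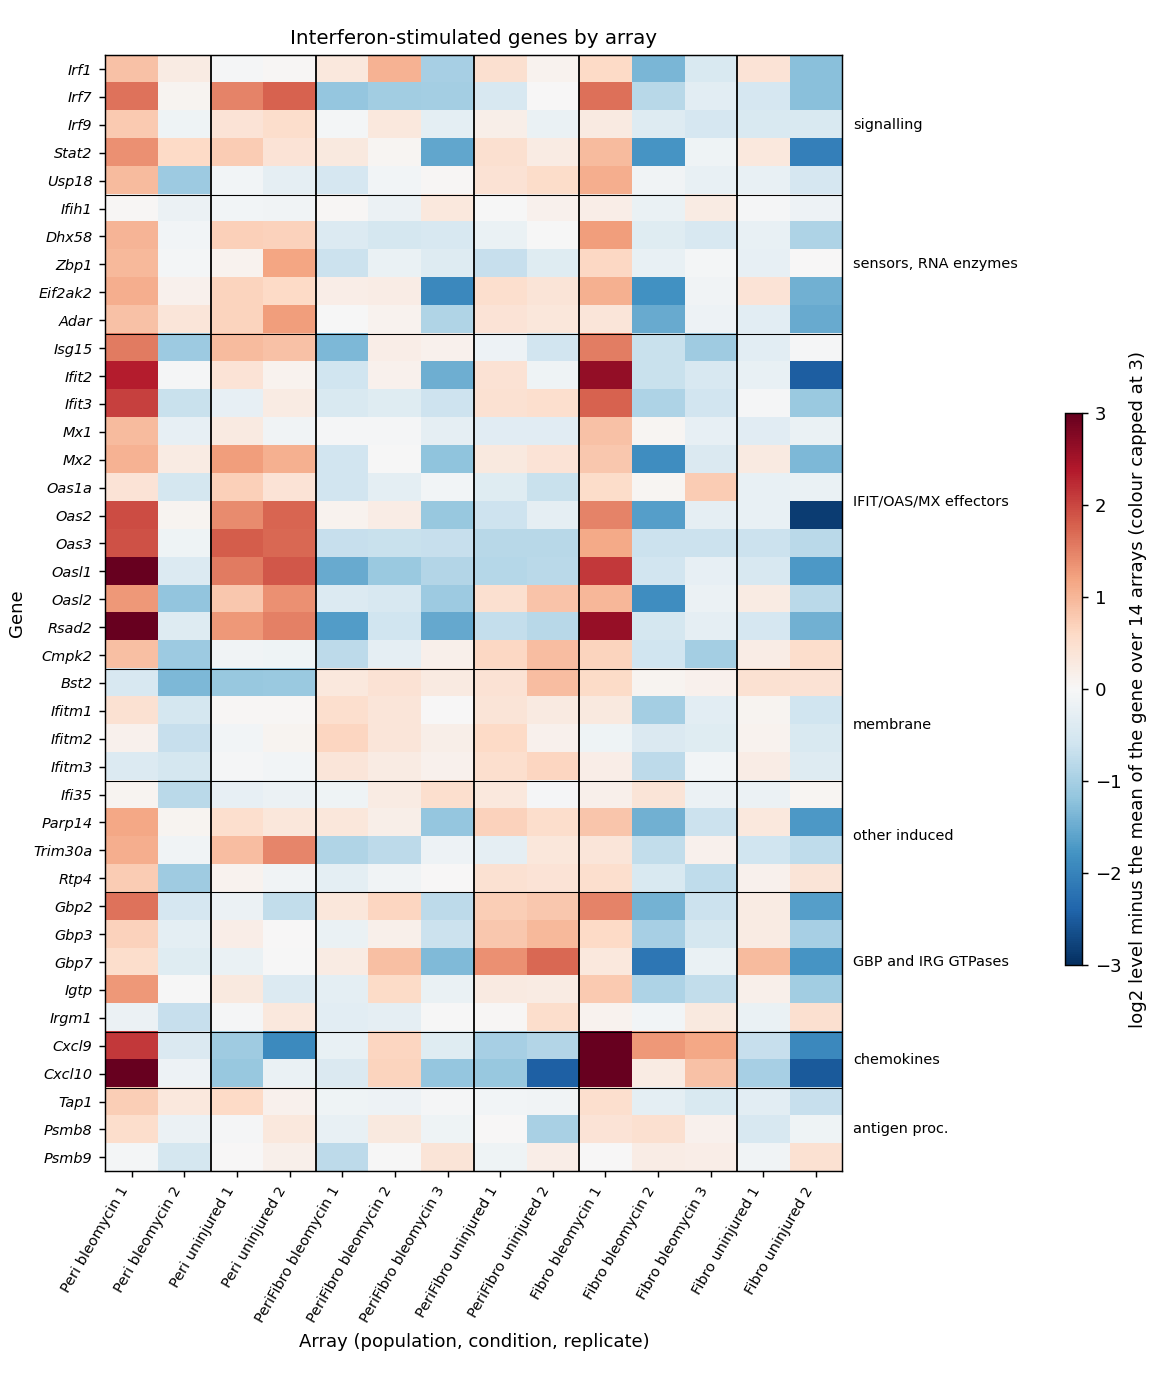
Levels of the 40 measured interferon-stimulated genes (rows, by role) on the 14 arrays (columns, by population and condition), as log2 signal minus the mean of the gene over all arrays, with the colour capped at 3. Peri bleomycin replicate 1 and Fibro bleomycin replicate 1 are red over most rows, while the other bleomycin arrays of the same populations are not.

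Cxcl9 and Cxcl10 are chemokines that draw T cells through the receptor Cxcr3, and both are strongly induced by interferon gamma. Cxcl10 read 11.57 and 6.85 on the Peri bleomycin arrays and 5.86 and 6.80 on the Peri uninjured arrays, so that the second bleomycin array lay just above the higher uninjured array. In PeriFibro cells it read 6.57, 7.67 and 5.83 after bleomycin, against 5.87 and 4.54 in uninjured lungs, which overlap. Fibro cells had 10.85, 7.24 and 7.87 after bleomycin, against 6.01 and 4.49 when uninjured. Every bleomycin array lay higher there, as for 9.56% of all genes. The readings of 4.54 and 4.49 were below background, and the differences in PeriFibro and Fibro cells used them. The 5.83, 7.24 and 4.49 are from the 3 arrays that stand apart. The log2 differences were 2.88 ± 1.42 in Peri (limma adjusted p = 0.77), 1.49 ± 1.30 in PeriFibro (adjusted p = 0.92) and 3.40 ± 1.30 in Fibro cells (adjusted p = 0.28; all ± SE).

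Cxcl9 read 9.19 and 6.64 on Peri bleomycin arrays, against 5.99 and 5.16 on Peri uninjured arrays. PeriFibro arrays had 6.84, 7.70 and 6.69 after bleomycin, against 6.08 and 6.19 when uninjured. Fibro arrays had 10.29, 8.37 and 8.23 after bleomycin, against 6.37 and 5.14 when uninjured. The 6.69, 8.37 and 5.14 are from the 3 arrays that stand apart. All bleomycin arrays lay above all uninjured arrays of their population, as 23% of all genes did for Peri cells, 11.6% for PeriFibro cells and 9.56% for Fibro cells. This difference came nearest to the threshold in Fibro cells, at 3.21 ± 0.76 on the log2 scale (adjusted p = 0.069; 0.032 when either Peri bleomycin array was left out of the model), and was 2.34 ± 0.84 in Peri (adjusted p = 0.47) and 0.94 ± 0.76 in PeriFibro cells (adjusted p = 0.91). The mean of 9 macrophage and monocyte markers was also higher after bleomycin. In Peri cells it was 8.48 and 9.02, against 6.95 and 6.72 when uninjured. In PeriFibro cells it was 8.37, 9.26 and 9.39, against 7.04 and 7.96. In Fibro cells it was 10.3, 11 and 10.4, against 9.19 and 9.11. Single markers went both ways. On Peri arrays C1qb read 10.02 and 10.59 after bleomycin, against 5.92 and 5.66 when uninjured, but Csf1r read 9.64 and 8.76, against 10.29 and 10.53. On Fibro arrays Chil3 read 12.04, 12.24 and 12.09 after bleomycin, against 13.51 and 12.98 when uninjured. The part of these markers in the chemokine levels was not tested.

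The guanylate-binding proteins and immunity-related GTPases, which attack vacuoles that shelter microbes, had differences of the opposite sign in PeriFibro cells, where all 5 measured members averaged lower after bleomycin and none was called. Gbp7 read 8.02, 8.69 and 6.45 on PeriFibro bleomycin arrays and 9.16 and 9.49 on PeriFibro uninjured arrays, without overlap (log2 difference -1.61 ± 0.88, adjusted p = 0.83). Gbp3 read 9.01, 9.37 and 8.58 after bleomycin, against 10.03 and 10.19 when uninjured (log2 difference -1.12 ± 0.49, unadjusted p = 0.042, adjusted p = 0.72). The lowest reading of both genes, 6.45 and 8.58, came from PeriFibro bleomycin replicate 3, among the 3 arrays that stand apart. In all, 18 of the 40 members lay lower on every PeriFibro bleomycin array than on both uninjured arrays, as 15.8% of all genes did, and 3 lay higher on every array, as 11.6% did.

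The response to bleomycin was also set against that of the other populations. No member was called for a difference of responses between Peri and PeriFibro, Peri and Fibro, or PeriFibro and Fibro cells, where 0, 0.482% and 0.129% of all genes were called. For PeriFibro minus Fibro, 38 of the 40 members had a negative difference of responses, with a median of -0.78, against -0.01 over all genes. It was -1 or below for 20 members (50%) and for 2.95% of all genes. Ifit2, whose product binds viral RNA, had the lowest value at -2.64 ± 1.43, and its adjusted p was 1. None of the 40 reached an unadjusted p under 0.05, where 3.35% of all genes did. The 40 values come from the same arrays and are not independent. Among these arrays, Fibro bleomycin replicate 1 lay above the mean of its other replicates for 38 members, with a median log2 difference of 1.49. Fibro uninjured replicate 2 was the lowest of all 14 arrays for 15 members, against 11.4% of all genes.

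Levels differed widely between arrays of 1 group. In Fibro uninjured cells replicate 1 was 2-fold or more above replicate 2 for 17 members (42.5%), against 14.5% of all genes. The median log2 difference there was 0.68, and Fibro uninjured replicate 2 is among the 3 arrays that stand apart. Bleomycin arrays had larger medians in Peri and Fibro cells. Peri bleomycin replicate 1 exceeded replicate 2 for 40 of 40 members and for 71 of their 71 kept probes, with a median log2 difference of 1.06, against -0.09 over all genes. The difference was 2-fold or more for 21 members (52.5%) and for 3.15% of all genes. Fibro bleomycin replicate 1 exceeded the mean of replicates 2 and 3 for 38 members, with a median of 1.49, against 0.01 over all genes, and by 2-fold or more for 25 members (62.5%) against 4.93% of genes. PeriFibro bleomycin replicate 1 did not stand out in this way, being above the mean of its other replicates for 18 of 40. These arrays were singled out after their values were seen, and the labels do not say whether equal replicate numbers mark the same mouse.

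**Figure D2:**
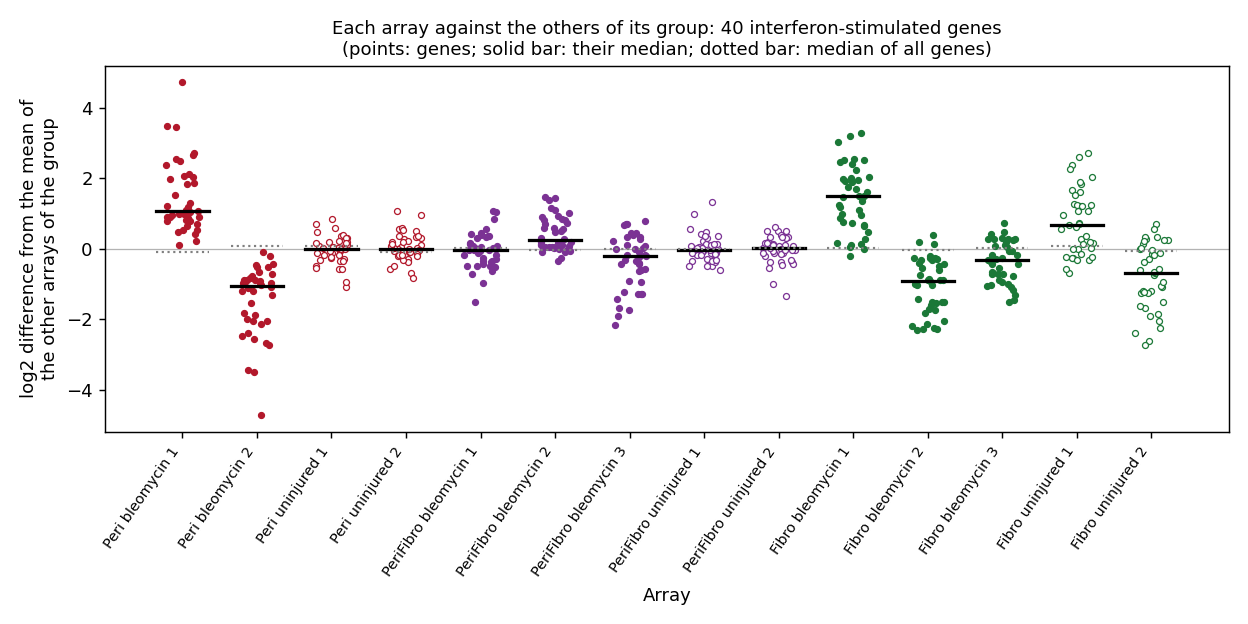
Log2 difference between each array and the mean of the other arrays of its group, for the 40 members (points), with their median (solid bar) and that of all genes (dotted bar). Filled points are bleomycin arrays and open points uninjured arrays. The medians reach 1.06 for Peri bleomycin replicate 1, 1.49 for Fibro bleomycin replicate 1 and 0.68 for Fibro uninjured replicate 1. In groups of 2 arrays the values mirror each other.

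Antiviral effectors of the IFIT, OAS and MX class carried the widest gap after the chemokines. Of the 12 measured, 10 were 2-fold or more higher on Peri bleomycin replicate 1 than on replicate 2 (median 2.22), and 10 on Fibro bleomycin replicate 1 than on the mean of its other replicates (median 2.20). Rsad2, which makes a chain-terminating nucleotide, read 12.56 and 9.07 on the Peri bleomycin arrays and 10.76 and 10.98 on the Peri uninjured arrays, which lie between them. It read 12.09, 8.94 and 9.19 on Fibro bleomycin arrays and 8.97 and 8.02 on Fibro uninjured arrays. PeriFibro levels were 7.78, 8.87 and 7.93 after bleomycin and 8.75 and 8.62 when uninjured. Only the first array of the Peri and of the Fibro bleomycin group exceeded 11 on this scale.

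Oasl1, a 2'-5' oligoadenylate synthetase-like protein that restrains Irf7 translation in mice, showed the same ordering. Its levels were 9.88 and 6.43 in Peri bleomycin, against 8.40 and 8.71 in Peri uninjured arrays. Fibro arrays had 8.97, 6.25 and 6.59 after bleomycin, against 6.36 and 5.10 when uninjured, and PeriFibro arrays stayed between 5.31 and 6.02 throughout. Ifit3, a partner of Ifit1 in binding viral RNA, read 11.96 and 9.24 in Peri bleomycin, against 9.66 and 10.15 in Peri uninjured arrays. In Fibro cells Ifit3 read 11.68, 9.0 and 9.33 after bleomycin, against 9.87 and 8.80 when uninjured. In PeriFibro cells it read 9.45, 9.55 and 9.29 after bleomycin, against 10.36 and 10.42 when uninjured, so the injured arrays lay lower there. Isg15 read 11.85 and 9.19 in Peri bleomycin, against 11.25 and 11.16 in Peri uninjured arrays, and 11.82, 9.63 and 9.23 in Fibro bleomycin, against 9.98 and 10.24 in Fibro uninjured arrays. For Isg15 the other Peri and Fibro bleomycin replicates lay below all uninjured arrays of their population.

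**Figure D3:**
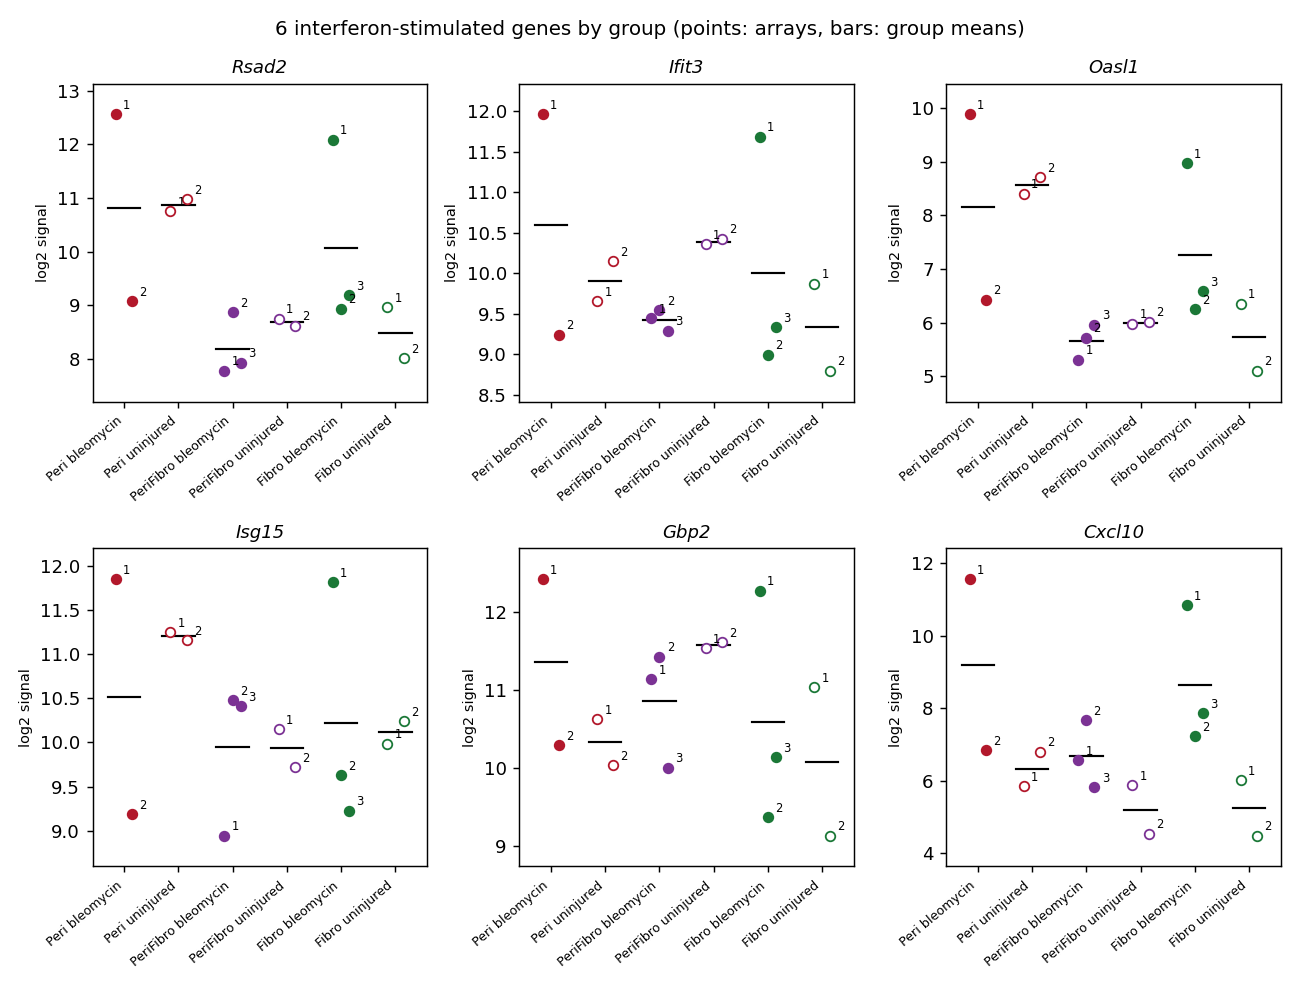
Log2 signal (y axis) of Rsad2, Ifit3, Oasl1, Isg15, Gbp2 and Cxcl10 in the 6 groups, with bleomycin arrays filled, uninjured arrays open, replicate numbers beside the points and bars at group means. Replicate 1 of Peri bleomycin and of Fibro bleomycin are the highest 2 points in all panels.

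Those 2 arrays were the highest of all 14 for 16 members (40%), against 2.48% of all genes. The 16 were Stat2 and Usp18 (a transcription factor and the enzyme that removes Isg15 and damps receptor signalling), Dhx58 and Eif2ak2 (sensors of double-stranded RNA), Isg15, Ifit2, Ifit3, Mx1, Oasl1 and Rsad2 (effectors), Parp14 and Rtp4, Gbp2 and Igtp (GTPases), and Cxcl9 and Cxcl10. Against the mean of the uninjured arrays of its population, Fibro bleomycin replicate 1 was higher for 38 members (median 1.18) and Peri bleomycin replicate 1 for 32 (median 0.44). Replicate 2 of Peri bleomycin was lower for 35 (median -0.60). PeriFibro bleomycin replicates 1, 2 and 3 were lower for 31, 24 and 28 members (medians -0.34, -0.19 and -0.41). Shares of all genes were not computed against these uninjured means. The Fibro mean includes Fibro uninjured replicate 2, the lowest of all 14 arrays for 15 members. In Fibro bleomycin, replicate 2 was lower for 24 members and replicate 3 for 11. Neutrophil markers moved with these arrays, at a mean of 12.5 and 11 on Peri bleomycin replicates 1 and 2 and at 10.8, 7.76 and 9.56 on Fibro bleomycin replicates 1, 2 and 3. On uninjured arrays these markers were at 11.7 and 12.3 in Peri and 8.91 and 8.55 in Fibro cells. Their part in the members' levels was not tested.

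Ifng, which encodes interferon gamma and is no member, also differed between these arrays. It read 10.04 and 7.99 in Peri bleomycin, against 7.21 and 9.46 in Peri uninjured arrays. Fibro arrays had 7.09, 4.60 and 5.52 after bleomycin, against 4.31 and 4.76 when uninjured, while all PeriFibro arrays lay at or below 4.55. The Peri uninjured array with 9.46 had Cxcl10 at 6.80 and Cxcl9 at 5.16, and the one with 7.21 had them at 5.86 and 5.99. The part of Ifng in the chemokine levels was not tested.

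Several members were low on the 3 arrays that stand apart. Those arrays were the lowest 3 of 14 for 11 members (27.5%), against 10.5% of all genes, and the highest 3 for 1 member (2.50%), against 8.61%. Ifit2 read 4.78, below background, on Fibro uninjured replicate 2 and 7.04 on replicate 1, and Gbp7 read 6.01 and 8.73. Stat2 read 5.24 on PeriFibro bleomycin replicate 3, against 7.09 and 6.85 on replicates 1 and 2. Fibro bleomycin replicate 2 had 5.02, against 7.75 and 6.67 on replicates 1 and 3. Psmb9, an immunoproteasome subunit, did not share this, reading 11.29 on Fibro bleomycin replicate 2 and 11.52 on Fibro uninjured replicate 2, its highest level of all. Cardiac muscle markers averaged 7.98 on PeriFibro bleomycin replicate 3, 8.17 on Fibro bleomycin replicate 2 and 9.74 on Fibro uninjured replicate 2, against 4.46 to 6.74 on 10 of the other 11 arrays and 8.39 on Fibro bleomycin replicate 3. Their part in the low levels was not tested.

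Between populations 1 to 6 of the 40 members passed the test where Peri cells were compared, and none did between PeriFibro and Fibro cells. In uninjured lungs, Peri against PeriFibro called 2 members higher (10.2% of all genes were called higher) and 1 lower (14.6%), or 3 of 40 (7.50%) against 24.8% of genes in all. Peri against Fibro called 5 members higher (8.88% of genes) and 1 lower (12.8%), or 6 of 40 (15%) against 21.7%. At day 7 the first pair called 1 member higher (9.75% of genes) and 1 lower (11.2%), or 2 of 40 (5%) against 20.9%, and the second called 0 higher (3.27%) and 1 lower (4.26%), or 1 of 40 (2.50%) against 7.53%. These shares of members were below those of all genes in this model. For Peri against PeriFibro uninjured cells the count rested on the model: it was 12 of 40, against 29.7% of all genes, with only these groups in the model, 9 (29.3% of genes) with array weights and 7 (30.4% of genes) without the 3 arrays that stand apart. PeriFibro against Fibro gave 0 members, with 2.35% of genes called in uninjured lungs and 6.09% at day 7. At an unadjusted p under 0.05 the PeriFibro against Fibro comparison held 2 members in uninjured lungs (5%, against 15.9% of all genes) and 4 at day 7 (10%, against 21.2%).

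Bst2, or tetherin, a membrane protein that holds budding virus on the cell surface, was lower in Peri cells in all 4 comparisons. It read 8.63 and 8.65 on Peri uninjured arrays, against 10.21 and 10.70 on PeriFibro and 10.24 and 10.21 on Fibro uninjured arrays. At day 7 it read 9.29 and 8.41 in Peri, against 10.10, 10.20 and 10.05 in PeriFibro and 10.35, 9.84 and 9.90 in Fibro cells. No Peri array reached any array of the other populations. Within single comparisons, 21.2% to 37% of all genes lay lower on every Peri array. In uninjured lungs Bst2 was 3.50-fold lower than in PeriFibro (log2 difference -1.81 ± 0.30, adjusted p = 8e-04) and 3.0-fold lower than in Fibro cells (-1.58 ± 0.30, adjusted p = 0.0029). At day 7 it was 2.40-fold lower than in PeriFibro (-1.26 ± 0.28, adjusted p = 0.0057) and 2.27-fold lower than in Fibro cells (-1.18 ± 0.28, adjusted p = 0.025). These comparisons share their Peri arrays. Bst2 is itself among the 5 listed markers of mouse plasmacytoid dendritic cells, and the other 4 did not move together. Against PeriFibro cells, Siglech, Ly6d and Klk1 were called higher in Peri in uninjured lungs and at day 7, with log2 differences of 2.11 and 3.07 for Siglech and 5.79 and 4.20 for Ly6d and with Klk1 not above background in PeriFibro cells, while Tcf4, like Bst2, was called lower (-1.73 and -1.64). Against Fibro cells Ly6d was called higher in uninjured lungs (2.97) and at day 7 (2.13), Klk1 only in uninjured lungs and Siglech only at day 7 (1.94). Their part in the Bst2 levels was not tested.

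OAS proteins make the short oligoadenylates that activate RNase L, and they were on the other side. Oas3 read 6.89 and 6.79 on Peri uninjured arrays and was not above background on the 2 PeriFibro (4.25 and 4.26) or the 2 Fibro uninjured arrays (4.43 and 4.27). Peri uninjured cells were therefore at least 4.24-fold higher than PeriFibro (adjusted p = 0.009) and at least 4.16-fold higher than Fibro cells (adjusted p = 0.014), with background set per array at the lowest signal above it. Oas1a read 5.66 and 5.35 on Peri and was below background on PeriFibro uninjured arrays (4.58 and 4.27), at least 1.68-fold higher in Peri (adjusted p = 0.032). The fitted 2.12-fold difference behind this call used those readings below background. Over 25 alternatives the log2 difference of Oas1a ran from 0.16 to 1.27. Oas2 read 9.34 and 9.66 on Peri, 7.29 and 7.63 on PeriFibro, and 7.69 and 5.07 on Fibro uninjured arrays. It was 8.69-fold higher in Peri than in Fibro cells (log2 difference 3.12 ± 1.01, adjusted p = 0.045), and the lower Fibro array is among the 3 that stand apart. At day 7 Oas3 read 6.99 and 4.94 in Peri, against 4.39, 4.41 and 4.40 in PeriFibro and 6.21, 4.45 and 4.45 in Fibro cells, and was not called.

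Irf7 averaged 9.38 on Peri uninjured arrays (9.24 and 9.52), against 7.27 and 7.76 on PeriFibro and 7.24 and 6.50 on Fibro uninjured arrays. Peri exceeded Fibro cells by 5.70-fold (log2 difference 2.51 ± 0.69, adjusted p = 0.021). At day 7 Irf7 read 9.37 and 7.84 in Peri, against 6.58, 6.71 and 6.72 in PeriFibro cells, a 3.82-fold difference (1.93 ± 0.63, adjusted p = 0.044). Fibro bleomycin arrays had 9.41, 6.92 and 7.44 and overlapped with Peri.

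Adar, which edits adenosines in double-stranded RNA, read 8.61 and 9.18 on Peri and 7.62 and 6.41 on Fibro uninjured arrays (3.69-fold higher in Peri, adjusted p = 0.035). Its other 3 kept probes gave log2 differences of 1.16 to 1.52, against 1.88 for the brightest. Trim30a, a ubiquitin ligase that restrains Toll-like receptor signalling in mice, read 9.24 and 9.77 on Peri and 7.71 and 7.53 on Fibro uninjured arrays (3.68-fold higher in Peri, adjusted p = 0.012). Both genes lay higher on each Peri uninjured array than on either Fibro uninjured array, as 28.4% of all genes did.

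**Figure D4:**
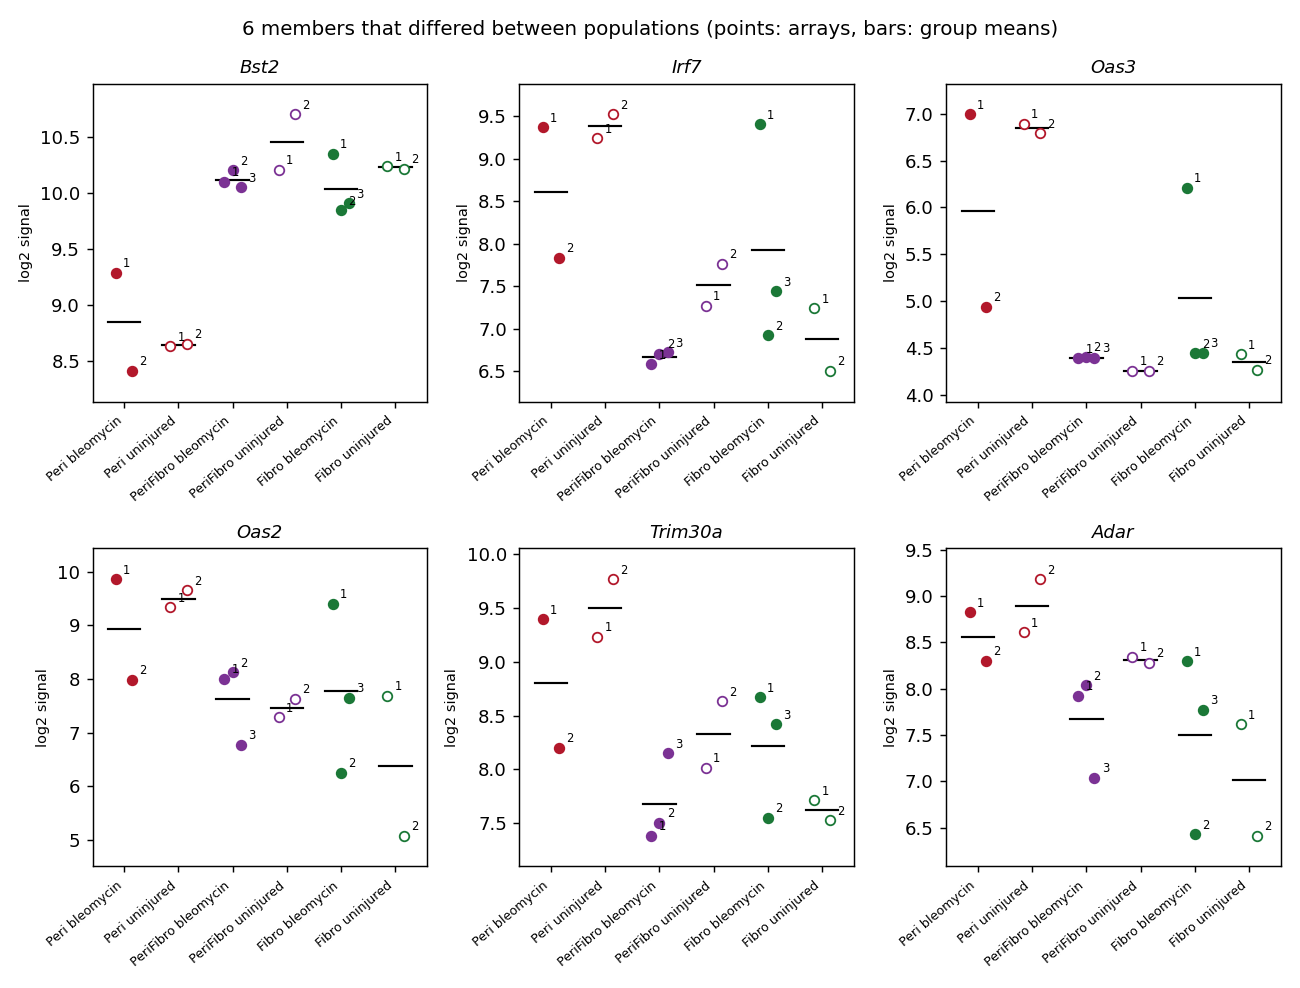
Log2 signal (y axis) of Bst2, Irf7, Oas3, Oas2, Trim30a and Adar in the 6 groups, with bleomycin arrays filled, uninjured arrays open, replicate numbers beside the points and bars at group means. Bst2 lies between 8.41 and 9.29 on the 4 Peri arrays and higher on all others, while the other 5 genes have their highest group mean in Peri uninjured cells.

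Single arrays decided most of these calls. Irf7 at day 7 was 1.17 on the log2 scale without Peri bleomycin replicate 1 (adjusted p = 0.41), and with any of 8 other arrays left out its adjusted p lay between 0.052 and 0.096. Bst2 at day 7 lost its call against PeriFibro without Peri bleomycin replicate 2 (-0.83, adjusted p = 0.079), and against Fibro cells without that array (-0.75, adjusted p = 0.2) or without Fibro bleomycin replicate 1 (-1.03, adjusted p = 0.056). Without Fibro uninjured replicate 2, every call higher in Peri than in Fibro uninjured cells was lost: Oas2 was 1.81 (adjusted p = 0.33, and 0.057 to 0.06 without any of 5 arrays outside the comparison), Adar 1.28 (0.25), Irf7 2.14 (0.13), Oas3 2.44 (0.067) and Trim30a 1.79 (0.065). Without Peri uninjured replicate 2 they were lost too, at adjusted p values of 0.072 to 0.2, and without Peri uninjured replicate 1 for all but Trim30a, at 0.069 to 0.12. Against PeriFibro cells, Oas1a lost its call without any of the 4 arrays compared (adjusted p = 0.073 to 0.17), and Oas3 without Peri or PeriFibro uninjured replicate 1 (0.05 after rounding). In uninjured lungs Bst2 kept its call against both populations whichever array was left out.

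Directions over the whole list were mixed. Peri exceeded Fibro cells for 34 of 40 members in uninjured lungs, with a median log2 difference of 0.66, and for 30 at day 7, with a median of 0.52. Peri exceeded PeriFibro cells for 22 members in uninjured lungs (median 0.14) and for 31 at day 7 (median 0.60). Without Peri bleomycin replicate 1 the day 7 medians became -0.30 against Fibro and -0.12 against PeriFibro cells. PeriFibro exceeded Fibro cells for 32 members in uninjured lungs (median 0.51) and for 15 at day 7 (median -0.18). Over all genes these medians lay between -0.05 and 0.06. The uninjured medians against Fibro cells include Fibro uninjured replicate 2, which is among the 3 arrays that stand apart. That array was the lowest of all 14 for 15 of the 40 members, against 11.4% of all genes.

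In uninjured lungs all 5 GTPases averaged lower in Peri than in PeriFibro cells, at a median log2 difference of -0.79. They averaged higher than in Fibro cells, at a median of 0.30, and the model of all 6 groups called none on either side. Gbp2 read 10.62 and 10.04 on Peri, against 11.53 and 11.61 on PeriFibro uninjured arrays (log2 difference -1.24 ± 0.95, adjusted p = 0.4). With only these groups in the limma model, Gbp2 (adjusted p = 0.011) and Gbp7 (log2 difference -1.66, adjusted p = 0.0018) were called lower in Peri than in PeriFibro cells. Ifitm2 and Ifitm3, which hinder viruses from fusing with endosomes, were at 12.70 or above on all 14 arrays and were not called.

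Ifitm1, a related protein that acts at the cell surface, gave different answers by probe. Its brightest probe read 13.68 on both Peri, 14.03 and 13.92 on PeriFibro, and 13.73 and 13.05 on Fibro uninjured arrays, with differences of -0.29 against PeriFibro and 0.29 against Fibro cells. Tested singly among 20162 probes, its other 4 kept probes were called higher in Peri than in PeriFibro uninjured cells (adjusted p = 0.0019 to 0.011). A pair of them was not above background on any PeriFibro uninjured array and was at least 16.7-fold and at least 9.29-fold higher in Peri, and the other two had log2 differences of 3.50 and 3.00. Against Fibro uninjured cells the 4 were 2.39 to 3.94 higher on the log2 scale (adjusted p = 0.0087 to 0.042), with 2 of them detected on only 1 of the 2 Fibro arrays. At day 7, 3 of these 4 were called against PeriFibro and 1 against Fibro cells. Of all 20162 probes, 21.7% were called in either direction between Peri and PeriFibro uninjured cells and 18.4% between Peri and Fibro uninjured cells. At day 7 these shares were 18.1% and 6.03%. Which transcript each probe reads was not tested, and a count of members called through the brightest probe leaves Ifitm1 out.

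**Figure D5:**
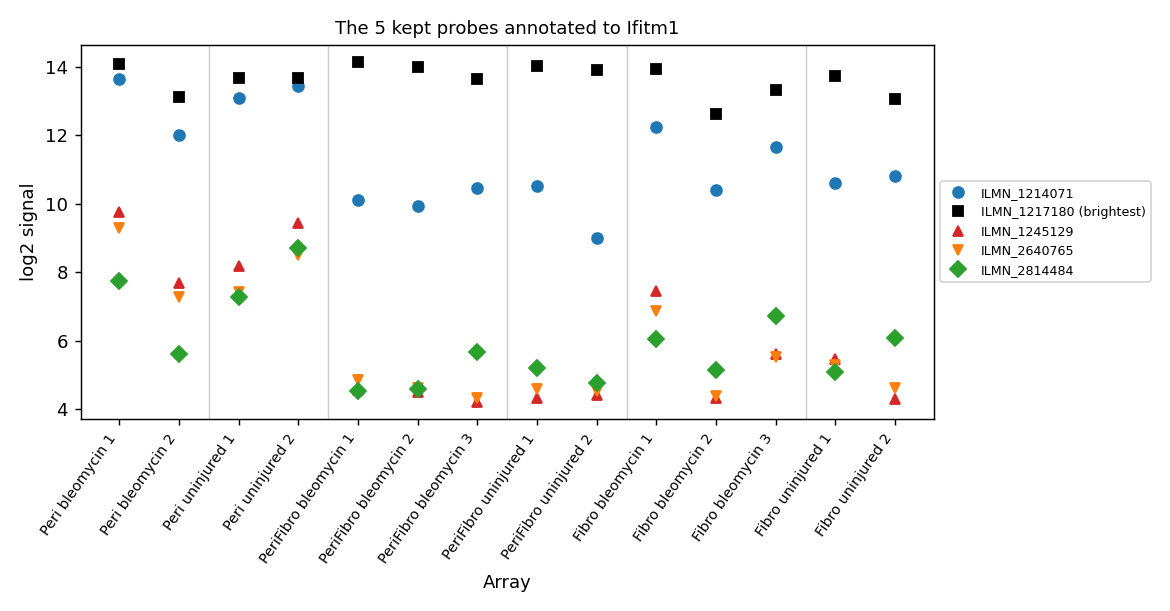
Log2 signal (y axis) of the 5 kept Ifitm1 probes on the 14 arrays (x axis). The brightest probe (black squares) stays between 12.6 and 14.2 throughout, while the other 4 have higher means on Peri than on PeriFibro arrays.

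No antigen processing gene was called between populations, and of the 5 nucleic acid sensors and RNA-binding enzymes only Adar was. Tap1, which pumps peptides into the endoplasmic reticulum, read 9.19 and 8.71 on Peri, against 8.50 and 8.47 on PeriFibro and 8.27 and 7.91 on Fibro uninjured arrays, and was 0.86 ± 0.32 higher than in Fibro cells on the log2 scale (adjusted p = 0.078). Psmb8, an immunoproteasome subunit, lay between 10.87 and 12.38 on all 14 arrays. Zbp1, a sensor of nucleic acids in the Z form, read 6.61 and 7.68 on Peri, against 5.81 and 6.13 on PeriFibro uninjured arrays. Both Peri arrays lay higher, as for 31% of all genes (log2 difference of Zbp1 1.17 ± 0.42, adjusted p = 0.062). Ifih1, which senses long double-stranded RNA, was detected on 3 arrays, as was Mx1, a GTPase that traps viral nucleocapsids, so most of their levels lie at background. Irf1, the transcription factor induced first by interferon gamma, lay between 10.97 and 13.38 on the 14 arrays and was not called in any comparison.

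Some genes upstream of the members were also called between populations. Of 23 measured pathway genes outside the list (28 were listed), Peri uninjured cells had 7 called higher and 2 lower against PeriFibro (9 of 23, against 24.8% of all genes), and 5 higher and 1 lower against Fibro uninjured cells (6 of 23, against 21.7%). At day 7 the counts were 8 higher and 2 lower against PeriFibro (10 of 23, against 20.9%) and 1 higher against Fibro cells (1 of 23, against 7.53%), and none was called for bleomycin in any population. PeriFibro against Fibro cells gave 2 of 23 lower in uninjured lungs (2.35% of all genes were called in either direction) and 3 of 23 lower at day 7 (6.09%).

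Ifng levels in Peri uninjured cells were at least 11.9-fold those in PeriFibro cells (adjusted p = 0.0034), where it was not above background, and at least 11.7-fold higher than in Fibro uninjured cells (adjusted p = 0.0075). At day 7 Peri had at least 19.6-fold more than PeriFibro (adjusted p = 0.0012) and 9.70-fold more than Fibro cells (adjusted p = 0.026). Irf8 and Irf5, transcription factors of leukocytes, were 8.86-fold and 14.4-fold higher in Peri than in PeriFibro uninjured cells, and Tlr7, a sensor of single-stranded RNA, 9.34-fold (adjusted p = 0.00063, 3.2e-05 and 3e-05). Jak1, the kinase shared by both interferon receptors, was lower in Peri, by 14.8-fold against PeriFibro (6.98 and 6.23 in Peri against 10.52 and 10.47 in PeriFibro cells, adjusted p = 9.6e-05) and by 5.98-fold against Fibro uninjured cells (adjusted p = 0.0024). Tlr3, a sensor of double-stranded RNA, was at least 2.22-fold lower in Peri, where it was not above background, than in PeriFibro uninjured cells (adjusted p = 0.002). T and NK cell markers, 7 of 9 measured, averaged 11.6 to 11.7 on Peri, 5.91 to 7.19 on PeriFibro and 7.92 to 9.85 on Fibro arrays, and their part in these differences was not tested.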

How the data were processed

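RNA of 14 sorted samples was hybridised to Illumina MouseWG-6 v2.0 bead arrays, which have 1 colour. The authors deposited, for 45281 probes, an unnormalised signal intensity per array, with no earlier step given in the sources used here. Beside it they deposited a detection p-value, which sets a probe's signal against control beads. The log2 values that the authors deposited for each sample were variance-stabilised and quantile-normalised with lumi, after removal of outlier arrays that are not analysed here. They served as an alternative.

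Background correction and quantile normalisation of the intensities used limma's neqc (limma 3.58.1, R 4.3.3, detection p-values for the background, offset 16, log2). A probe was kept when its detection p was below 0.05 on 2 or more arrays. In the annotation 34885 probes have 1 gene symbol, 18 have several and 10378 have no symbol. The brightest kept probe represents a gene. A linear model over the 6 groups was fitted to 12444 genes (lmFit and eBayes, 8 residual and 3.43 prior degrees of freedom), with two-sided tests and Benjamini-Hochberg adjustment. Where a gene was not above background on any array of a group, the fold is a bound ("at least"): the mean of the brighter group against, per array, the higher of the lowest detected signal and the probe's own. The fit was tested on simulated data. Promoters are RefSeq windows.

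Members and lists were chosen with earlier results of these data known. Any member could be named, and full statistics went to called members. Replicate numbers did not pair the samples. The alternatives were the deposited log2 values, no background correction, an offset of 50, median scaling, no detection filter, detection on 7 arrays, averaging the probes of each gene, fits to only those groups that a comparison names, a replicate block, array weights and each array left out. Leaving out 3 arrays, crossing the Peri uninjured numbers and testing Ifitm1 probes singly were added after the data were seen. Slides are not identified. The number of arrays limits precision.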

Additional observations from a re-analysis of the deposited data

How the results depend on the processing

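No call reversed in direction under any alternative run. Counts of members called that moved by over 1.5 times were as follows. For Peri against PeriFibro at day 7, Peri against Fibro at day 7, and the same pairs in uninjured lungs, the model of the report gave 2, 1, 3 and 6. The deposited log2 values gave 0, 0, 1 and 2. Median scaling, which shifts the median of all genes by up to 0.373, gave 1, 0, 1 and 1 in the same order. No background correction gave 1 for Peri against PeriFibro at day 7 and 1 in uninjured lungs. An offset of 50, no detection filter and the replicate block each gave 1 for Peri against PeriFibro at day 7. With only the groups compared in the model, Peri against Fibro at day 7 gave 0 and Peri against PeriFibro uninjured 12. Array weights gave 5 for Peri against PeriFibro at day 7, 9 in uninjured lungs and 1 for PeriFibro against Fibro at day 7 (Oas1a). Without the 3 arrays that stand apart, chosen after seeing the data, the last 2 of these counts were 7 and 1 (Oas1a).

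For each of the first 4 comparisons, the settings not named for it, probe averaging and detection on 7 arrays included, gave 2 to 3, 1, 2 to 4 and 4 to 7 with all arrays or without the 3.

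Replicate numbers were used only as names, since correlations of same-numbered deviations were mixed. They were 0.611 and 0.665 for Fibro bleomycin against uninjured, 0.399 and 0.149 for Peri against Fibro at day 7, and 0.543, -0.41 and -0.297 for PeriFibro against Fibro at day 7, the comparison with 3 pairs. For Peri bleomycin against uninjured both were -0.178; there the replicate block called 0 members and 44 genes, and the block with crossed Peri uninjured numbers 0 members and 49 genes. With the replicate block, Cxcl9 was called in Fibro cells for bleomycin against uninjured, a count of 1, and the count for Peri against PeriFibro at day 7 was 1.

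Leaving out each array in turn gave 0 to 1 members for Fibro bleomycin against uninjured, with Cxcl9 the 1 without either Peri bleomycin array. It gave 0 to 1 for Peri against Fibro at day 7, and 1 to 8 in uninjured lungs, with 2 without Peri uninjured replicate 1 and 1 without Peri uninjured replicate 2 or Fibro uninjured replicate 2. It gave 1 to 6 for Peri against PeriFibro at day 7, with 6 without Peri bleomycin replicate 2 and 5 without Fibro bleomycin replicate 1, and 1 to 5 in uninjured lungs, with 1 without PeriFibro uninjured replicate 1 and 5 without Peri bleomycin replicate 1 or 2 or Fibro bleomycin replicate 1. Where a group is left with 1 array, that array is assumed to vary like the others. The remaining 6 comparisons kept their count of 0 in all settings. Of 25 alternatives, the Bst2 calls held in 25 for both uninjured comparisons, in 23 against PeriFibro and in 20 against Fibro cells at day 7. Irf7 at day 7 and Oas2 held in 10 each. Oas3, low in signal, had log2 differences of 0.45 to 2.59 against Fibro cells, lowest with the deposited values. Differences of genes near background are limited by signal over background.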
